A study of Mus musculus with 4 samples.

Results

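The Foxp family consists of Foxp1, Foxp2, Foxp3 and Foxp4, 4 of the 21887 protein-coding genes placed on the assembled chromosomes. The members were taken by name and not by their values, although earlier results of these data were known when they were chosen. Open chromatin around them was read from 4 ATAC-seq libraries of wild-type (wt) whole mouse lung at embryonic stage E15.5, in which the Tn5 transposase cuts accessible DNA and inserts sequencing adapters. The 4 libraries form 1 group, with replicate numbers 1 to 4, so the study holds no contrast between conditions. According to the labels, tissue was snap-frozen and 60000 nuclei were tagmented. The sources used here name neither the mouse strain nor whether replicates came from separate embryos, so every spread below may be technical. In whole lung, fewer cells with an open site and weaker opening in each cell cannot be told apart.

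FOXP proteins are forkhead transcription factors that bind DNA as dimers, mostly as repressors. Foxp1, Foxp2 and Foxp4 are known from the epithelium of the developing lung, where they take part in differentiation of airway and alveolar cells. Foxp1 also acts in B cells, heart and neurons. Foxp2 is also known from the circuits of vocal learning, and Foxp3 is the lineage factor of regulatory T cells. Foxp1 and Foxp2 are very long genes, whereas Foxp3 and Foxp4 are compact.

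Foxp1 (gene ID 108655) lies at chr6:98925342-99522746 (mm10) and spans 597.4 kb. Foxp2 (gene ID 114142), at chr6:14901349-15441977, spans 540.6 kb. Foxp3 (gene ID 20371), at chrX:7579676-7595243, spans 15.6 kb, and Foxp4 (gene ID 74123), at chr17:47867133-47924632, spans 57.5 kb. RefSeq lists 41 transcripts for Foxp1, 4 for Foxp2, 3 for Foxp3 and 8 for Foxp4. The set of RefSeq start windows used here holds 3 separate starts for Foxp1, 0 for Foxp2, 2 for Foxp3 and 1 for Foxp4. Starts missing from this set were not checked, and the listed ones are counted from the outermost start inwards.

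The DNA before 5 of these starts is shown because the starts differed in opening: all 4 libraries had a peak summit within 1 kb of the 3 Foxp1 starts and the Foxp4 start, and none had one at the Foxp3 start. Each line gives the 250 bases before the start, from RefSeq on GRCm38.p6, 5′ to 3′ on the strand of the gene. Capitals mark matches to the forkhead core TGTTTAC and to its variants TGTTTGC and also TGTTTAT, searched on both strands (a match on the other strand of the gene reads as the reverse complement), and no matches overlapped.
Foxp1 start 1, chr6:99520994-99521243, minus strand: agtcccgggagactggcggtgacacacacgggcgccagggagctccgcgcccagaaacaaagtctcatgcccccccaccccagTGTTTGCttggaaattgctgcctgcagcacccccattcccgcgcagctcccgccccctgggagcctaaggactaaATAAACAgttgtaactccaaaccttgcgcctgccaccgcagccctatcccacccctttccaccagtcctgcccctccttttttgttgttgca
Foxp1 start 2, chr6:99266516-99266765, minus strand: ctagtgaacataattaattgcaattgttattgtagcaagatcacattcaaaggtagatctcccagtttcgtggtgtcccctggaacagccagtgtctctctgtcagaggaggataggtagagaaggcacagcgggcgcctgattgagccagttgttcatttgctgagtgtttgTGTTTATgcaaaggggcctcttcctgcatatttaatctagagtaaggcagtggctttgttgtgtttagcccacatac
Foxp1 start 3, chr6:99028299-99028548, minus strand: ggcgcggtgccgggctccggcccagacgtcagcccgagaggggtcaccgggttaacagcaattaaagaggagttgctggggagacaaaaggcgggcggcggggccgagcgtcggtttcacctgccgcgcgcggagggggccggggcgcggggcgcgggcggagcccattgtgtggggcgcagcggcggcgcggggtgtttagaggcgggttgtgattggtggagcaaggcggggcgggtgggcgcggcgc
Foxp4 start 1, chr17:47924633-47924882, minus strand: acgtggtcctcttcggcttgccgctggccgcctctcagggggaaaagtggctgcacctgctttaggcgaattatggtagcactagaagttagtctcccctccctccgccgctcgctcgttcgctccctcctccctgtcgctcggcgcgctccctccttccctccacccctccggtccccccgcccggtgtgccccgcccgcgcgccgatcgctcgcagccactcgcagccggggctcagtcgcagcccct
Foxp3 start 1, chrX:7579426-7579675, plus strand: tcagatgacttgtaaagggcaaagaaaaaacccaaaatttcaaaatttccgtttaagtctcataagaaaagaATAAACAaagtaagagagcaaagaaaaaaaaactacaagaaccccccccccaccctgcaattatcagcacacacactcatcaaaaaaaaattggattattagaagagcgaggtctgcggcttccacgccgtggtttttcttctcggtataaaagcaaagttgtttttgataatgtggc

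The 3 Foxp1 starts differ in base composition. The DNA before start 3 was 74.0% G and C, with a CpG observed-to-expected ratio of 1.12, above that of 98.4% of the 32851 RefSeq start windows. The DNA before start 1 was 60.8% G and C with a ratio of 0.52, and that before start 2 was 45.2% G and C with a ratio of 0.24, above 35.5% of windows. The Foxp4 start was also rich in CpG, at 69.6% G and C and a ratio of 0.96. Foxp3 start 1 was rich in A and T, with 37.6% G and C, above 8.19% of windows. One or more of the 3 motifs stood before Foxp1 starts 1 and 2 and Foxp3 start 1, and in 11.0% of all windows (3.17% held TGTTTAC, while 4.30% held TGTTTGC and 4.16% held TGTTTAT). At Foxp1 start 1 they were TGTTTGC, beginning 167 bases before the start, and TGTTTAT on the other strand, beginning 92 bases before it. At Foxp1 start 2 TGTTTAT began 77 bases before the start, and at Foxp3 start 1 it began 178 bases before it on the other strand. The DNA before Foxp1 start 3 and the Foxp4 start held none. A match is only a run of letters, and binding was not measured.

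Facts of the libraries bear on every count. Lists held 134503, 186199, 211678 and 192842 peaks in replicates 1 to 4, and the median fold enrichment, the authors' ratio of the summit's read pileup to background, was 8.99, 3.86, 3.90 and 3.73. Because the median fold differs this much, levels are given below as the percentile of a peak's fold among all peaks of its own library. The peaks of replicate 1 are named Frais (fresh, in French) and those of the other replicates Frozen, whereas the labels describe frozen tissue for all. Of markers for lung epithelium (6 genes) and lung mesenchyme (6 genes), all 12 had a summit within 1 kb of an annotated end in every library. So did 3 of 4 endothelial and 3 of 4 neuronal markers. The share was 2 of 9 for blood and T cell markers, 0 of 3 for liver markers and 60.5% of all protein-coding genes.

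Peaks around the 4 genes differed in number. The Foxp1 locus, the gene with 100 kb on either side, held 83, 90, 95 and 80 peaks in replicates 1 to 4, and the Foxp4 locus 57, 100, 101 and 101. The Foxp2 locus held 17, 19, 14 and 20, and the Foxp3 locus 11, 44, 16 and 35. Foxp1 and Foxp2 are of similar length, yet every library had at least 4 times as many peaks at Foxp1. The number at Foxp1 was 87.0 ± 6.78 (SD, n = 4), and that at Foxp3, 26.5 ± 15.6, varied most for its size. Relative to list length, per 100000 peaks of the library, the Foxp4 locus held 49.0 ± 5.13 and the Foxp1 locus 49.1 ± 8.86. On that scale Foxp4 had 42.4 in replicate 1, against 47.7 to 53.7 in the others.

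**Figure D1:**
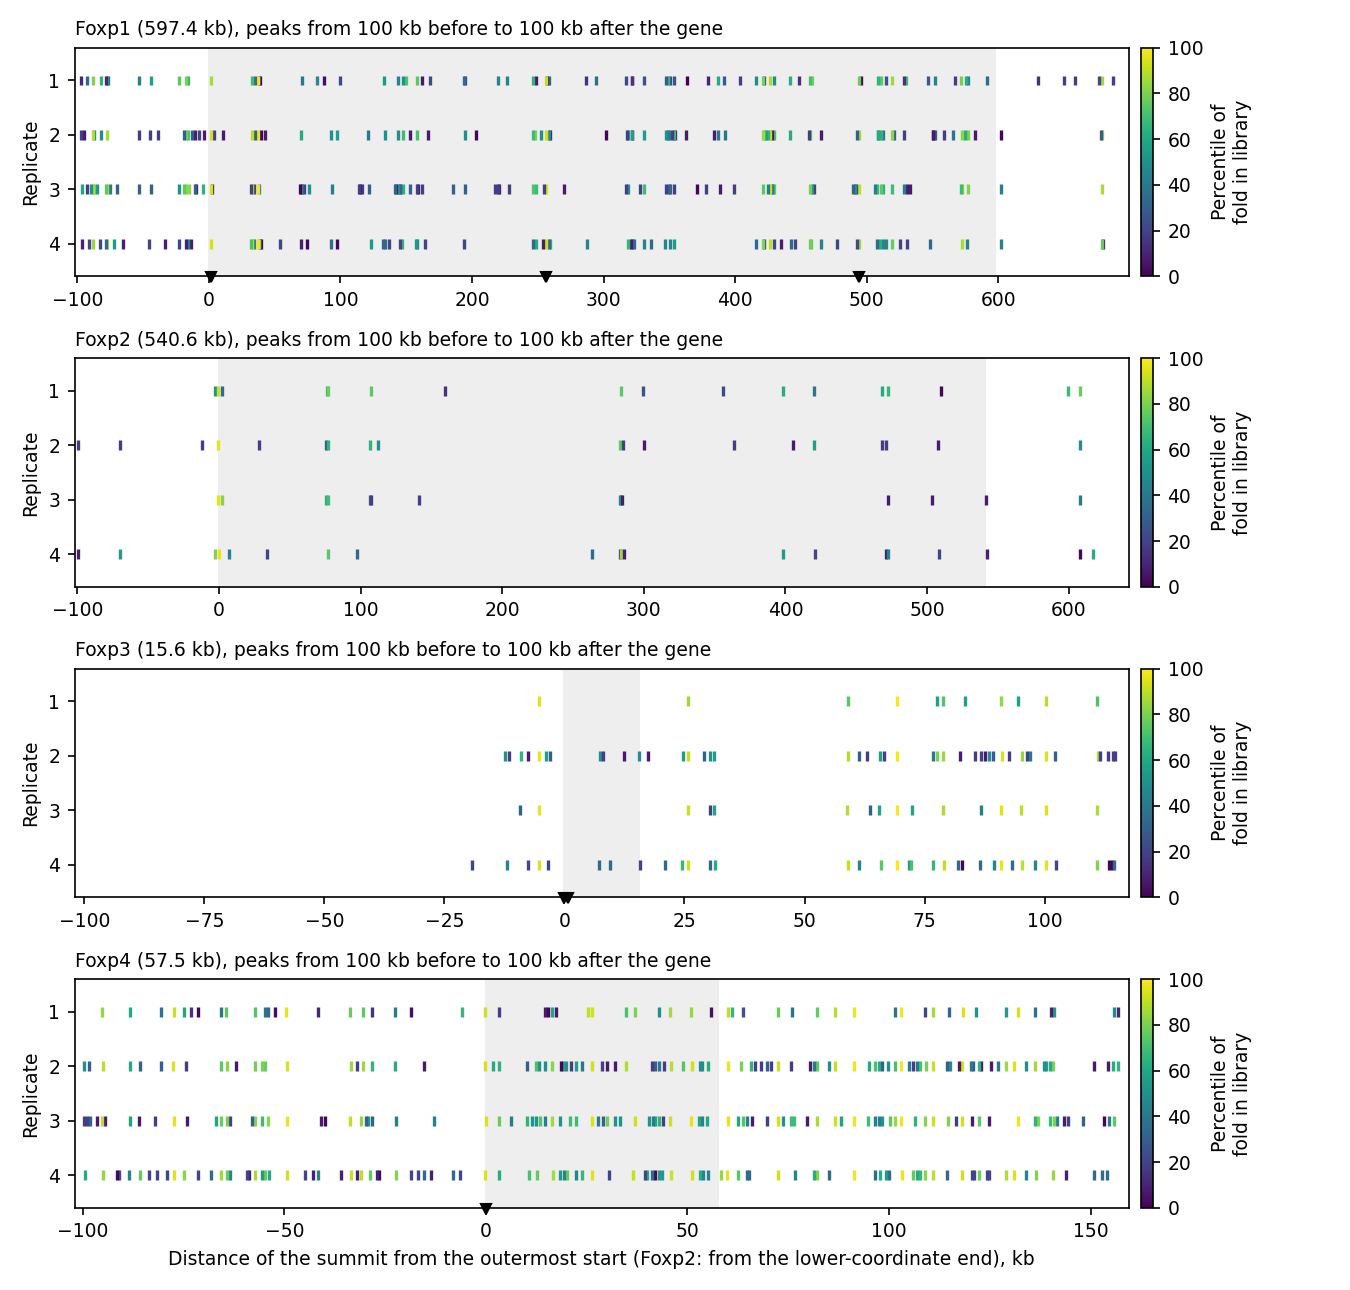
Peak summits along each locus in the 4 libraries (rows), with distance in kb from the outermost start (for Foxp2, from the end of lower coordinate) on the x axis and color for the percentile of fold; grey marks the gene and triangles the RefSeq starts. Peaks run through Foxp1 and Foxp4, are sparse along Foxp2, and are missing from the Foxp3 body in replicates 1 and 3.

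Summits were sorted into gene ends (within 1 kb of either outermost end), gene body (inside and farther from both ends) and outside. Exons and introns were not separated, since exon positions were not used here. In Foxp1, 65, 71, 74 and 63 peaks lay in the gene body, none at an end, and 18, 19, 21 and 17 outside, in replicates 1 to 4. In Foxp2, 13, 14, 11 and 13 lay in the body, 1 at an end in each library, and 3, 4, 2 and 6 outside. In Foxp4 most peaks lay outside, with 13, 28, 28 and 23 in the body, 1, 1, 1 and 2 at an end, and 43, 71, 72 and 76 outside. For Foxp3 nearly every peak lay outside, with 0, 3, 0 and 2 in the body and 0, 1, 0 and 1 at an end.

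**Figure D2:**
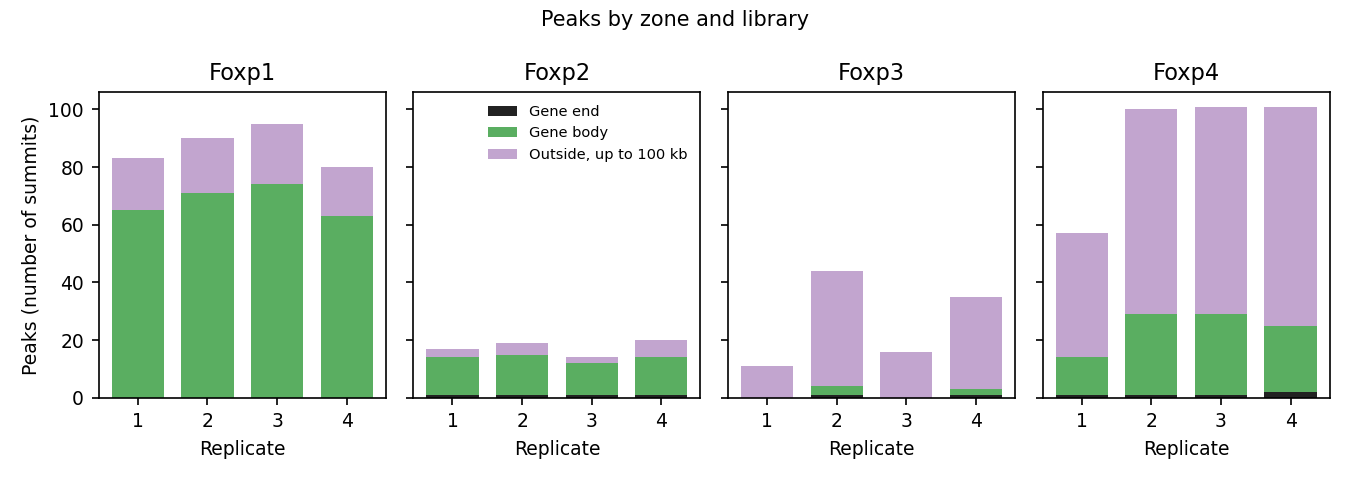
Number of peak summits (y axis) in each replicate (x axis) for each gene, stacked by zone: gene end, gene body, and outside up to 100 kb. Foxp1 and Foxp2 peaks lie mostly in the gene body, and Foxp3 and Foxp4 peaks mostly outside.

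The body of Foxp1 held 77.9% to 78.9% of its locus peaks on 75.04% of its DNA. For Foxp2 the body held 65.0% to 78.6% on 73.1%, for Foxp4 22.8% to 28.0% on 21.9%, and for Foxp3 0% to 6.82% on 6.41%. The share of peaks in the body thus lay near its share of the DNA, so densities per length were compared. Foxp4 had 23.4, 50.5, 50.5 and 41.4 gene-body peaks per 100 kb in replicates 1 to 4, and Foxp1 10.9, 11.9, 12.4 and 10.6. Foxp3 had 0, 22.1, 0 and 14.7, and Foxp2 2.41, 2.60, 2.04 and 2.41. Foxp4 was above Foxp1 in 4 of 4 libraries, by 30.0 ± 12.2 per 100 kb (SD, n = 4; two-sided exact sign-flip permutation test, p = 0.13, and 0.375 adjusted over 3 neighbouring pairs in the order). With 4 libraries 0.13 is the smallest p possible, so the design cannot pass the usual threshold. The order, and so the pairs compared, came from the mean densities in these same data. The p values of pairs are therefore descriptive only. Foxp3 could not be placed, since it exceeded Foxp1 in 2 libraries and had no gene-body peak in the other 2; Foxp1 minus Foxp3 was 2.25 ± 11.2 per 100 kb and Foxp3 minus Foxp2 6.85 ± 10.9 (exact sign-flip permutation p = 0.75 and 0.5, both 0.75 adjusted). With only peaks of q 1e-05 or less, Foxp3 had no gene-body peak in any library, so the split between libraries rests on weaker peaks. Without Foxp3 the ranges do not overlap: the lowest Foxp4 value exceeds the highest Foxp1 value, and the lowest Foxp1 value the highest Foxp2 value.

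Gene-body density exceeded the density outside in 4 of 4 libraries for Foxp1 and for Foxp4, by 1.99 ± 0.24 and 8.36 ± 6.93 peaks per 100 kb (SD, n = 4; exact sign-flip permutation p = 0.13 each, 0.25 adjusted over 4 genes). For Foxp2 the difference was 0.47 ± 0.75, positive in 3 libraries, and for Foxp3 -3.29 ± 4.42, positive in 1 (exact sign-flip permutation p = 0.375 each, and 0.375 adjusted). The Foxp2 and Foxp3 differences are smaller than their own SD. The size of the Foxp3 difference changed with the peaks used. It was -6.57 ± 0.92 with only peaks of q 1e-05 or less. That filter left no peak in the body of any library, so the negative sign was fixed in advance and no test applies. With lists of equal length the Foxp3 difference was -6.11 ± 2.83, negative in 4 of 4 libraries. The body then held 0.25 ± 0.5 peaks, so most of these signs were also fixed in advance and no test applies. A library with peaks outside but none in the body can only give a negative difference, as in replicates 1 and 3 with all peaks. With peaks at the ends of other genes left out, the Foxp3 difference was -0.83 ± 5.29 (exact sign-flip permutation p = 0.75). With only peaks of q 1e-05 or less, the Foxp1 difference was 0.91 ± 1.68 (exact sign-flip permutation p = 0.5) and the Foxp4 difference 3.06 ± 4.31 (exact sign-flip permutation p = 0.375). With lists of equal length they were 1.83 ± 2.74 (exact sign-flip permutation p = 0.375) and 10.8 ± 8.68 (exact sign-flip permutation p = 0.13). With the listed RefSeq starts taken out of the gene body, the Foxp1 difference was 1.55 ± 0.29 (exact sign-flip permutation p = 0.13).

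Read against other genes, Foxp4 stood high and Foxp2 low. Among the 13962 protein-coding genes of 10 kb or more, gene-body density ranked at percentile 95.3, 96.8, 94.6 and 93.4 for Foxp4 in replicates 1 to 4, and at 76.8, 61.1, 56.5 and 55.9 for Foxp1. It ranked at 37.8, 28.2, 23.1 and 27.3 for Foxp2, and at 15.1, 77.2, 8.72 and 64.7 for Foxp3. Long genes have few peaks per kb, so each member was also ranked among those of 0.5 to 2 times its length. There Foxp1 stood at percentile 85.3 ± 2.39 among 526 genes, Foxp4 stood at 97.3 ± 1.21 among 5749, Foxp3 at 39.8 ± 26.3 among 6646, and Foxp2 below the median of its 602 genes at 35.9 ± 5.45 (SD, n = 4 each). Foxp1 and Foxp2 thus lay on opposite sides of the median of genes of their length in every library. Outside the genes, the number of peaks ranked at percentile 98.6, 96.3, 92.9 and 98.8 among all 21887 protein-coding genes for Foxp4, at 64.9, 46.9, 44.8 and 41.1 for Foxp1, and at 16.2, 16.3, 12.2 and 21.0 for Foxp2. Foxp4 thus lay in a locus dense with peaks inside and outside the gene, and Foxp2 in a sparse one. With only peaks of q 1e-05 or less, the gene-body percentile of Foxp3 among genes of 10 kb or more was 17.9 ± 1.36, against 41.4 ± 34.6 with all peaks (SD, n = 4). For Foxp3 the outside ranks were 42.1, 74.6, 37.6 and 62.6, with the same split between libraries as in the body.

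**Figure D3:**
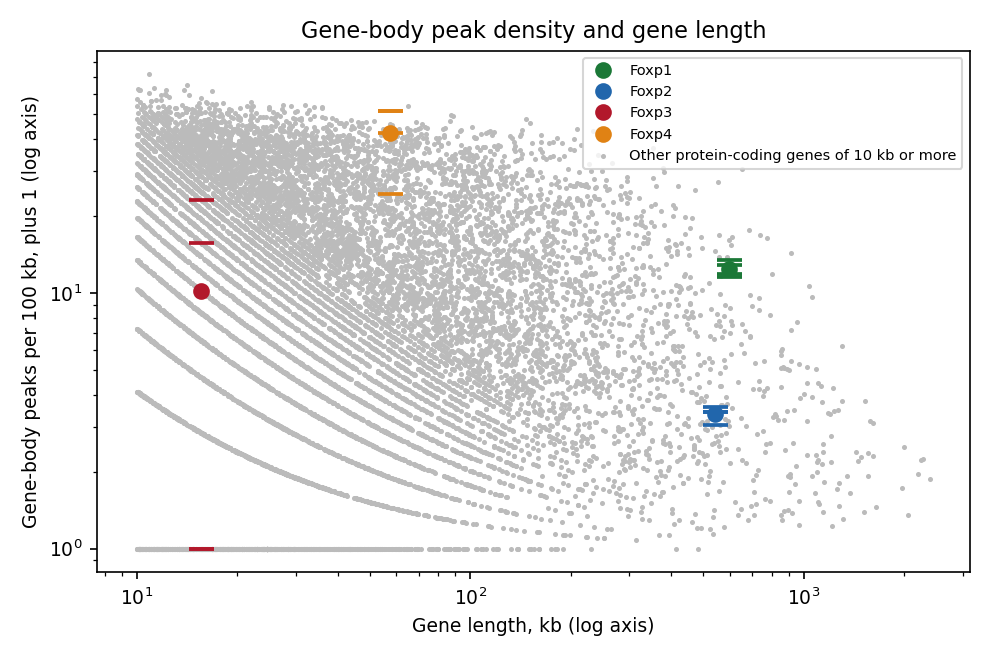
Gene-body peaks per 100 kb plus 1 (y axis, log) against gene length in kb (x axis, log), with circles for the mean of 4 libraries of each Foxp gene, dashes for single libraries and grey dots for other protein-coding genes of 10 kb or more. Foxp4 lies near the upper edge at its length, Foxp1 above most genes of its length, and Foxp2 among the lower ones; curved lines of dots are genes with the same number of peaks.

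The outermost ends miss the Foxp1 starts. By the 1 kb rule Foxp2 and Foxp4, 2 of 4 members, had a gene-end summit in every library (60.5% of all protein-coding genes did), Foxp3 in 2 libraries and Foxp1 in none (23.6% of all protein-coding genes had none). RefSeq start 1 of Foxp1 lies 1.75 kb inside the outermost end, start 2 256.2 kb inside and start 3 494.4 kb inside. At all 3 each library had a summit within 1 kb, as at 47.2% of the 32851 RefSeq start windows.

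At Foxp1 start 1 the peak stood at percentile 86.5, 92.9, 93.6 and 93.6 in replicates 1 to 4, a mean of 91.7 ± 3.44 (SD, n = 4). At start 2 it stood at 90.4, 92.7, 93.9 and 92.2, a mean of 92.3 ± 1.44. At start 3 it stood at 76.7, 86.5, 89.99 and 85.3, a mean of 84.6 ± 5.63. Starts 1 and 2 overlapped within this spread, while start 3 was below both in every library. Start 3, with the highest CpG ratio of the 3, was thus the weakest of them, and start 2, with the lowest, overlapped start 1. The merged regions of these peaks are chr6:99520274-99523762, chr6:99265329-99267027 and chr6:99027081-99029191. Summits at start 2 lay 164 to 309 bp downstream of the start, and those at start 1 lay between -244 and -113 bp, upstream of it. The recovered read pileups at start 2 were 162, 58, 54 and 42, and at start 3 65, 33, 35 and 24, in replicates 1 to 4.

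The single listed Foxp4 start had a peak at percentile 92.6, 94.0, 94.4 and 94.2 in replicates 1 to 4 (mean 93.8 ± 0.83, SD, n = 4), in the merged region chr17:47922649-47926493. The read pileup recovered at this summit was 201, 69, 58 and 55. The end of Foxp2 with the lower coordinate had a peak at percentile 91.5, 96.2, 95.4 and 96.8 (mean 95.0 ± 2.35), in a merged region of 6052 bp at chr6:14898033-14904084. Despite the sparse Foxp2 locus, this end ranked above Foxp1 starts 1 and 2 in 4 of 4 libraries and above the Foxp4 start in 3 of 4, and it was the strongest peak of its locus in 4 of 4 libraries.

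Neither listed Foxp3 start had a summit within 1 kb in any library. The summit nearest to start 1 lay at -5251, -3083, -5297 and -3506 bp from it in replicates 1 to 4, where negative values are upstream. The gene-end peaks of replicates 2 and 4 lay at the far end, inside the overlapping gene Ccdc22, at percentile 49.3 and 21.1 and with recovered pileups of 13 and 9 reads. The gene-body peaks were as weak: they formed 4 merged regions, 3 of them in 1 library and 1 in 2, with pileups of 9 to 13 reads. With only peaks of q 1e-05 or less, no library had a peak at an end of Foxp3 or in its body, and the locus held 13 ± 1.83 peaks (SD, n = 4).

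Markers of the cells that use Foxp3 were mixed. Of 9 blood and T cell markers, 2 had a gene-end summit in every library, against 60.5% of all protein-coding genes. These were Ikzf2 and Tnfrsf18, at percentile 88.3 ± 3.12 and 85.5 ± 4.51 (SD, n = 4), and both are also expressed outside T cells. Cd3d and Ikzf4 had one in 3 libraries and Cd4 in 2. The other 4, Ptprc (the common leukocyte antigen), Cd3e, Ctla4 and Il2ra, had none in any library, as had 23.6% of all protein-coding genes. Of 4 neuronal markers 3 had a gene-end summit in every library. The part of T cell number in the Foxp3 values was not tested.

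**Figure D4:**
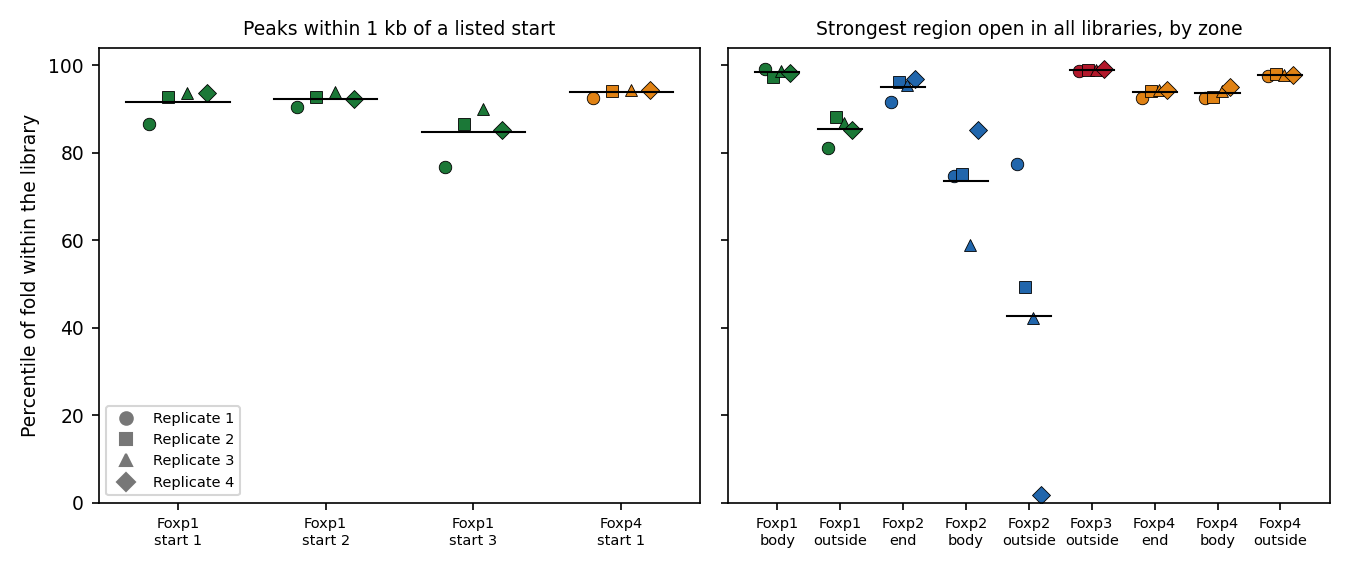
Percentile of fold within the library (y axis) for the peaks at the 4 open RefSeq starts (left) and for the strongest region open in all libraries in each zone (right); symbols are replicates, lines are means, colors are genes. Start 3 of Foxp1 is below starts 1 and 2 in every replicate, and the Foxp2 outside region ranges from 1.67 to 77.4.

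The strongest site of the Foxp1 locus was at none of its 3 listed starts, and starts of other transcripts were not checked. It was a merged region of 3760 bp at chr6:99484072-99487831, inside the gene and 35.6 kb downstream of start 1. Its peak stood at percentile 99.3, 97.4, 98.6 and 98.2 in replicates 1 to 4 (mean 98.4 ± 0.79, SD, n = 4), with recovered pileups of 699, 127, 145 and 123 reads. In 4 of 4 libraries it was the strongest peak of the locus, above all 3 starts. The next strongest away from the starts, chr6:99093182-99097080 (mean percentile 90.3 ± 1.96), also lay inside the gene, 427.9 kb from its outermost end. Outside the gene the strongest region, chr6:99610488-99611896, stood at 85.4 ± 3.02 and lay 10.9 kb from the end of Eif4e3, which encodes a cap-binding protein.

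Along Foxp1, 25 merged regions held a peak of every library, 20 in the gene body and 5 outside. They were spread over the gene, with a median spacing of 16.1 kb and a longest gap of 110.1 kb, from 37.3 to 147.4 kb from the outermost end. Of those in the gene body, 4 reached a mean percentile of 90 or more, among them starts 1 and 2. The remaining Foxp1 peaks were mostly weak and not shared: of 181 merged regions 13.8% held a peak of every library, against 21.5% of all 307572 merged regions. From 1 library came 112 (61.9%), against 49.5% of all regions. Their median percentile was 18.4, against 18.1, 25.5 and 21.1 for such regions at Foxp2, Foxp3 and Foxp4. Within single libraries, 27.7%, 30.0%, 36.8% and 33.8% of Foxp1 peaks were found in that library alone, against 20.2%, 16.7%, 23.3% and 23.2% of all peaks, in replicates 1 to 4. The share was higher at Foxp1 in 4 of 4 libraries.

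Foxp2 had 4 regions open in every library. Beside the gene end these were chr6:14977930-14978700, 76.9 kb into the gene (mean percentile 71.4 ± 5.35, SD, n = 4), chr6:15183916-15185963, 283.6 kb into it (73.5 ± 10.9), and chr6:15509153-15509723, 67.4 kb beyond the far end. The last of these varied from percentile 77.4 in replicate 1 to 1.67 in replicate 4, with a pileup of 7 reads there. Between the region at 283.6 kb and that at 608.1 kb no region was shared, a stretch of 324.5 kb. No other protein-coding gene lies within 100 kb of Foxp2. Of its 37 merged regions 10.8% were open in every library, against 21.5% of all regions.

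**Figure D5:**
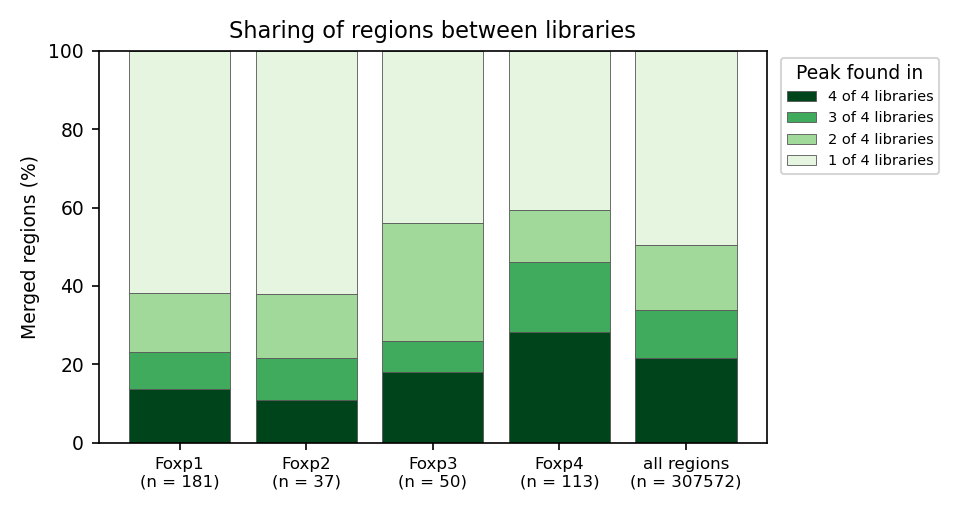
Merged regions (y axis, percent) of each Foxp locus and of all regions in the genome, stacked by the number of libraries with a peak in the region. Regions open in 4 of 4 libraries make up 13.8%, 10.8%, 18.0% and 28.3% for Foxp1 to Foxp4, against 21.5% of all regions.

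Foxp4 had 32 regions open in every library, of 113 (28.3%, against 21.5% of all regions), and 51 when replicate 1 was left out. In replicate 1, 89.5% of its peaks lay in such regions, against 60.9% of all peaks, and in replicates 2 to 4 58.0%, 52.5% and 43.6%, against 48.9%, 42.6% and 42.9%. They lay on both sides of the gene and within it: 6 in the body, 1 at the start and 25 outside, with a median spacing of 6.93 kb. The strongest inside the gene, chr17:47897113-47900394, lay 26.1 kb from the start at percentile 92.5, 92.7, 94.2 and 95.1 in replicates 1 to 4, which overlaps the start itself. A further body region, chr17:47872558-47880378, stood at 92.0 ± 4.05 (SD, n = 4). Before the start, chr17:47972210-47977546, 49.96 kb away, stood at 95.2 ± 1.69, and chr17:47998286-48003078, 76.0 kb away, at 94.6 ± 2.07 (SD, n = 4). The nearest ends of other protein-coding genes were 62.2 and 36.1 kb from them. At the far end of the gene, chr17:47860288-47868906 (94.8 ± 3.25) runs across the outermost coordinate, with its mean summit 3.37 kb beyond it.

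The highest Foxp4 regions by rank lay at the neighbour Mdfi, an inhibitor of myogenic factors. One, chr17:47828870-47839726, at percentile 97.5, 97.9, 97.8 and 97.7 in replicates 1 to 4, is 10857 bp of joined peaks that cover an end of Mdfi. No library had a summit within 1 kb of that end, and summits within 1 kb of the opposite end of Mdfi stood at 21.8, 79.4, 81.8 and 82.6. The other, chr17:47819358-47823763 (97.6 ± 0.49, SD, n = 4), lay inside Mdfi. Tfeb, a regulator of lysosomal genes, also lies within 100 kb, with a gene-end summit in replicates 1 and 3, at percentile 93.3 and 97.4. In replicates 2 and 4 a peak at percentile 95.1 and 94.6 had its summit just beyond the 1 kb window of the same end. Leaving out peaks within 1 kb of other genes' ends, with their DNA, left the Foxp4 difference between body and outside at 8.11 ± 6.80 per 100 kb (SD, n = 4).

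The outside peaks of Foxp3 lay among the ends of its neighbours. Its locus held 9 regions open in every library, none of them at Foxp3 or within it (9 also with only peaks of q 1e-05 or less and with lists of equal length), and 4 of the 9 had their mean summit within 1 kb of an end of another protein-coding gene. The region chrX:7572557-7575468, 5.27 kb upstream of Foxp3, sat at an end of Ppp1r3f, a regulatory subunit of a phosphatase, at percentile 95.0, 96.5, 97.2 and 94.5. It also covers an end of the noncoding gene Flicr, named here after its values were seen, which is annotated across the Foxp3 start. The region at an end of Ccdc22, which encodes a protein of endosomal sorting, stood at 90.3 ± 3.39 (SD, n = 4). Syp (synaptophysin, of synaptic vesicles), Prickle3 (planar polarity), Plp2 and Magix also had gene-end summits in 3 or more libraries. The strongest region of the locus in every library, chrX:7647893-7650532 (98.9 ± 0.18), lay inside Syp. Farther upstream, from 100 to 20 kb before Foxp3, no library had any peak.

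The Foxp3 locus and the whole X chromosome had most peaks in the same libraries, replicates 2 and 4. Replicates 1 to 4 had 2997, 6134, 2649 and 4848 peaks on X, which is 2.23%, 3.29%, 1.25% and 2.51% of each list, and 57, 58, 103 and 66 on Y. Replicates 2 and 4, with the most X peaks, were the ones with peaks in the Foxp3 body. Locus peaks made up 0.37%, 0.72%, 0.60% and 0.72% of X peaks. The part of the number of X peaks in the Foxp3 counts was not tested.

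Proteins that work with FOXP factors were mostly open at an annotated end. Of 16 listed partners and co-repressors, 12 (75%) had a gene-end summit in every library, against 60.5% of all protein-coding genes. Gatad2a and Gatad2b, subunits of the NuRD repressor complex, ranked at percentile 99.9 ± 0.01 and 99.8 ± 0.07, and Hdac1, a histone deacetylase, at 99.3 ± 0.29 (SD, n = 4). Of 10 genes reported as FOXP targets in lung epithelium, 8 (80%) were open in every library. Sftpc, a surfactant protein of distal epithelium, ranked highest at 97.0 ± 0.99, followed by Hopx at 87.2 ± 0.46 and Il6 at 85.0 ± 3.19. Agr2, a goblet cell gene, had no gene-end summit in any library. Both lists are short and were chosen with earlier results of these data known. Promoters of widely used genes such as Hdac1 are open in most tissues.

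Genes with the most similar profile were taken by the distance over 12 values, the peak densities at ends, in the body and outside in 4 libraries, on a log2 scale with 1 added. Nearest to Foxp1 were Patl2 at a distance of 0.59, Mecom at 0.59 and Enpp6 at 0.66, of which Mecom is of similar length, at 558.5 kb. All 3 had 0 gene-end peaks, as had Foxp1. This part of the match rests on the outermost ends, which miss the listed Foxp1 starts. Nearest to Foxp2 were Ctnnd2 at 0.82, Cpq at 0.88 and Tox at 0.90, all longer than 300 kb. Nearest to Foxp4 were Vwa2 at 0.65, Dock6 at 0.66 and Aspscr1 at 0.68. The nearest gene to Foxp3 was Glod5, also on X, at 1.79, and the next, B4galnt2, was at 3.38, farther than the nearest genes of the other members.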

How the data were processed

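Deposited data were 1 narrow peak list per library. MACS3 3.0.1, Bowtie2 2.5.2, Trim Galore and build mm10 are named in the submitters' processing notes; the steps, duplicate removal and any Tn5 shift are not stated in the sources used. The deposited fold is a ratio of the pileup at the summit to the background, set by the authors' caller. The deposited −log10 q served only as a filter, and the deposited summit offset (in bp) placed each peak. Below a fold of 15, all values (100%) sat on a ladder of equal steps in each list (tolerance 0.02 steps), and the step gave the summit pileups. Read totals were not analysed here, and 1 gene of a list is not reported by name.

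Contigs other than autosomes 1 to 19, X and Y were dropped, with 1245 to 1814 peaks per list. Gene spans and starts came from RefSeq tables of GRCm38.p6, which mm10 is drawn from; 3 of the 4 members matched a start window, 6 windows in all. Peaks of the lists that touch were joined into regions. A region belongs to the zone of its mean summit and takes the percentile of its strongest peak in each library. Scripts ran in Python 3.11.15 with pandas 2.3.3 and were tested on simulated peaks. Named genes were the members, neighbours with a summit at an end, the 3 genes of nearest profile, and, of 2 lists, the genes with no gene-end peak and the 3 highest. Regions beyond the strongest of each zone, Eif4e3 and the T cell markers were named after their values were seen. The members and lists were chosen with earlier results of these data known. Alternatives were a stricter q, equal list lengths, each library left out, other windows and reach, assignment by overlap, no wide peaks, 3 of 4 libraries, outside peaks at other genes' ends left out, and, added after seeing the data, RefSeq starts in place of gene ends or taken out of the gene body.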

Additional observations from a re-analysis of the deposited data

Results flagged for a closer look

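Replicate 1 stood apart from the other 3 libraries in 3 values, each with a gap to the nearest library that was large beside the range of all 4. Chance marks about 1 in 20 groups, and many groups were searched, so some marks can arise by chance. At the Foxp4 locus replicate 1 held 57 peaks, against 100 to 101, and outside the gene 43, against 71 to 76. The outside count is part of the locus count. At Foxp1 start 1 the peak of replicate 1 stood at percentile 86.5, against 92.9 to 93.6. Replicate 1 also has the shortest list and the highest median fold, and its part in these values was not tested.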

How the results depend on the processing

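No mean difference between gene body and outside changed sign in the alternatives run. Where a value below moved, the cause was not tested unless given. With a q of 1e-05 or less, mean peaks per locus were 39.5 (Foxp1), 7.75 (Foxp2) and 50 (Foxp4), gene-end percentiles 90.99 (Foxp2) and 88.0 (Foxp4), shared Foxp1 regions 15, and the Foxp2 body density percentile 38.8. With equal list lengths, mean peaks were 58.0 (Foxp1) and 10.5 (Foxp2), the Foxp4 gene-end percentile 91.8 and its body density percentile 96.7. Within 50 kb, mean peaks were 76.0 (Foxp1) and 53.8 (Foxp4) and shared regions 3 (Foxp3) and 18 (Foxp4), since less DNA was searched. With 3 of 4 libraries required, shared regions numbered 42 (Foxp1), 8 (Foxp2) and 52 (Foxp4). Shared Foxp4 regions ranged from 33 to 51 when 1 library was left out, with 51 without replicate 1, against 32 with all 4. Windows of 2.5 kb, or assignment by overlap, gave Foxp1 a gene-end percentile of 91.7 and Foxp4 95.5 or 95.0, and RefSeq starts gave Foxp1 92.7; 3 of 4 members were then open at an end by either of the first 2 rules, against 70.1% and 66.7% of all genes. No paired analysis was possible because there is 1 group. Read totals were not analysed, so precision is known only as the spread of 4 libraries.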
